A study of Mus musculus with 60 samples.

Results

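The genes described here are 10 whose products are acute-phase proteins or are linked to the acute-phase response and are made in adipose tissue: Hp, Lrg1, Itih4, Saa3, Lcn2, Clu, Serpina3n, Serpina3f, Orm1 and Steap4. They are 10 of the 55011 genes in the count table, picked by name, and each has its own entry in that table. They were named with results from these same libraries known, without a threshold, and which comparison was in view is not recorded. Their differences and adjusted p-values are therefore a description of these libraries and no independent evidence. Acute-phase proteins are plasma proteins whose synthesis changes during inflammation. The liver is the main source, and IL-6 acting through STAT3, IL-1 and TNF acting through NF-κB, C/EBP factors and glucocorticoids are the signals best known to drive their genes. Adipocytes and the macrophages among them also transcribe several of these genes.

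RNA was sequenced from whole brown adipose tissue (BAT, 38 libraries) and whole subcutaneous adipose tissue (SAT, 14 libraries) of male mice aged 8 weeks. In mice of the strain B6.Foxp3.DTR, cells that express Foxp3, the factor that defines regulatory T (Treg) cells, carry the diphtheria toxin receptor, and toxin removes them. DTR+ mice carry the receptor and DTR- mice do not, and diphtheria toxin (DT) was given to both. Each tissue had 4 libraries of either genotype under the name D4 and 3 of either genotype under the name D3. What D3 and D4 stand for is not stated, and the D3 titles say PBS where the treatment label says DT. A further BAT experiment, all with DT, had 3 groups of 3 libraries: PBS in DTR- mice, CL in DTR- mice and CL in DTR+ mice. CL is taken to be the beta-3 adrenergic agonist of that name. C57BL/6J mice received the anti-CD25 antibody PC61 or isotype (3 each), and DTR+ mice given DT received an antibody to interferon gamma (IFNg) or isotype (3 each). Mice at 4 degrees formed the last group of 3, with WT in the title, DTR- as genotype, the strain B6.Foxp3.DTR, PBS as treatment and no toxin named. Toxin removes Treg cells in the whole animal and not in fat alone. Whether the replicates came from different animals is not stated, and the p-values therefore rest on sample-to-sample spread that may be technical in part.

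Library totals ran from 3007241 to 9673342 counts in whole fat. Foxp3 gave 0 to 7 counts in every BAT library and so does not check the depletion there. In SAT it gave 0 to 29 counts in DTR- and 0 to 4 in DTR+ libraries. Levels below are CPM, counts relative to library size, scaled by TMM over the 52 whole-fat libraries. The summed adipocyte markers stood at 11300 to 27900 CPM in BAT and 45000 to 58900 in SAT, and the brown adipocyte markers at 8780 to 30000 in BAT and 229 to 1520 in SAT. The hepatocyte list, 6 genes, summed to at most 6.68 CPM in every BAT library outside the cold group, and Alb had a mean of 0 CPM in both D4 BAT groups. It summed to 361, 18 and 16 CPM in the cold libraries and to 27.4 to 67.8 in SAT, where Alb averaged 29.7 to 40.3 CPM over the groups. T cell markers summed to 43.1 CPM in the third PBS library and 96.0 in the third D4 DTR- SAT library, against at most 30.6 in the others. Skeletal muscle markers, 5 genes, varied widely within groups. In D4 BAT they summed to 12 to 2180 CPM in DTR- and 17 to 5110 in DTR+ libraries, and in D4 SAT to 16.3 to 242 and 25.6 to 2170.

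Promoters of 7 members were found in RefSeq (build GRCm38.p6), all but those of Hp, Clu and Orm1. The 250 bases before the start site were searched on both strands for letters of factors that act on acute-phase genes, since several members moved together. The searched letters were TTCNNNGAA (STAT), TTGCNNAA (C/EBP), GAAA and GAAA parted by any 2 bases (interferon element), GNACA and TGTNC parted by any 3 bases (glucocorticoid element) and the κB consensus. Of all 32851 promoters 7.02%, 9.56%, 2.98%, 0.387% and 7.25% held a match. The 5 stretches below, none of which enters the annotated gene, show the matches in capitals, and Serpina3f is shown from the more upstream of its RefSeq start sites:
Itih4, chr14:30886326-30886475, plus strand: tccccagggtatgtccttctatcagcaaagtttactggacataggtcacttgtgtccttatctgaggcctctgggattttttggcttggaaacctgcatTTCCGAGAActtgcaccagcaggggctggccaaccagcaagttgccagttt
Saa3, chr7:46715701-46715826, minus strand: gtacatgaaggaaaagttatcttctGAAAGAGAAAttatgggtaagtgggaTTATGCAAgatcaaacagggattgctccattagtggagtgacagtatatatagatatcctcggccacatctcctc
Serpina3n, chr12:104406558-104406707, plus strand: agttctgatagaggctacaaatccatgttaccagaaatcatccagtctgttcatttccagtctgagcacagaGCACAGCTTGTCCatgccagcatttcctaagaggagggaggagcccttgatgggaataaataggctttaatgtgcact
Serpina3f, chr12:104214394-104214543, plus strand: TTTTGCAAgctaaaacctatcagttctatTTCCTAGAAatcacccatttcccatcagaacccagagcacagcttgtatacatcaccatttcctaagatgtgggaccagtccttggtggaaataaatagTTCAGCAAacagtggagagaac
Steap4, chr5:7960322-7960456, plus strand: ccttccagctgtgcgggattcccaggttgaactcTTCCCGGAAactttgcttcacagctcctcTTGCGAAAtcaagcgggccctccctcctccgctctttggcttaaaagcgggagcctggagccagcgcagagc
The Itih4 stretch holds a STAT match, the Saa3 stretch an interferon element followed by a C/EBP match, and the Serpina3n stretch a glucocorticoid element. The Serpina3f stretch holds a STAT match between C/EBP matches, and the Steap4 stretch a STAT match followed by a C/EBP match. Steap4 also holds κB matches upstream of the stretch, and Lcn2 a C/EBP match at -216 to -209 from its RefSeq start site. That start site and that match both lie inside the annotated Lcn2 gene. Lrg1 held no match to these letters. A match is a description of the letters and not a binding site.

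Hp dominated the set in every whole-fat group. It encodes haptoglobin, which binds free haemoglobin, and lies at chr8:109575128-109579172 in mm10 on the minus strand. Per length, Hp reached 2490 TPM, a level corrected for gene length and library size, in D4 DTR- BAT, 76.3% of the summed TPM of the members, and 11000 TPM, or 84.9%, in D4 DTR+ BAT. In SAT it stood at 8610 TPM in DTR- and 7130 TPM in DTR+ libraries (69.7% and 69.5%). Lrg1 came next with 381 and 1270 TPM in DTR- and DTR+ BAT and 1680 and 1490 TPM in SAT. At the other end, Saa3 at 0.0648 TPM and Serpina3f at 0.0339 TPM were close to undetected in DTR- BAT. The summed TPM of the members was 3270 in DTR- and 13000 in DTR+ BAT, against 12400 and 10300 in SAT.

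**Figure D1:**
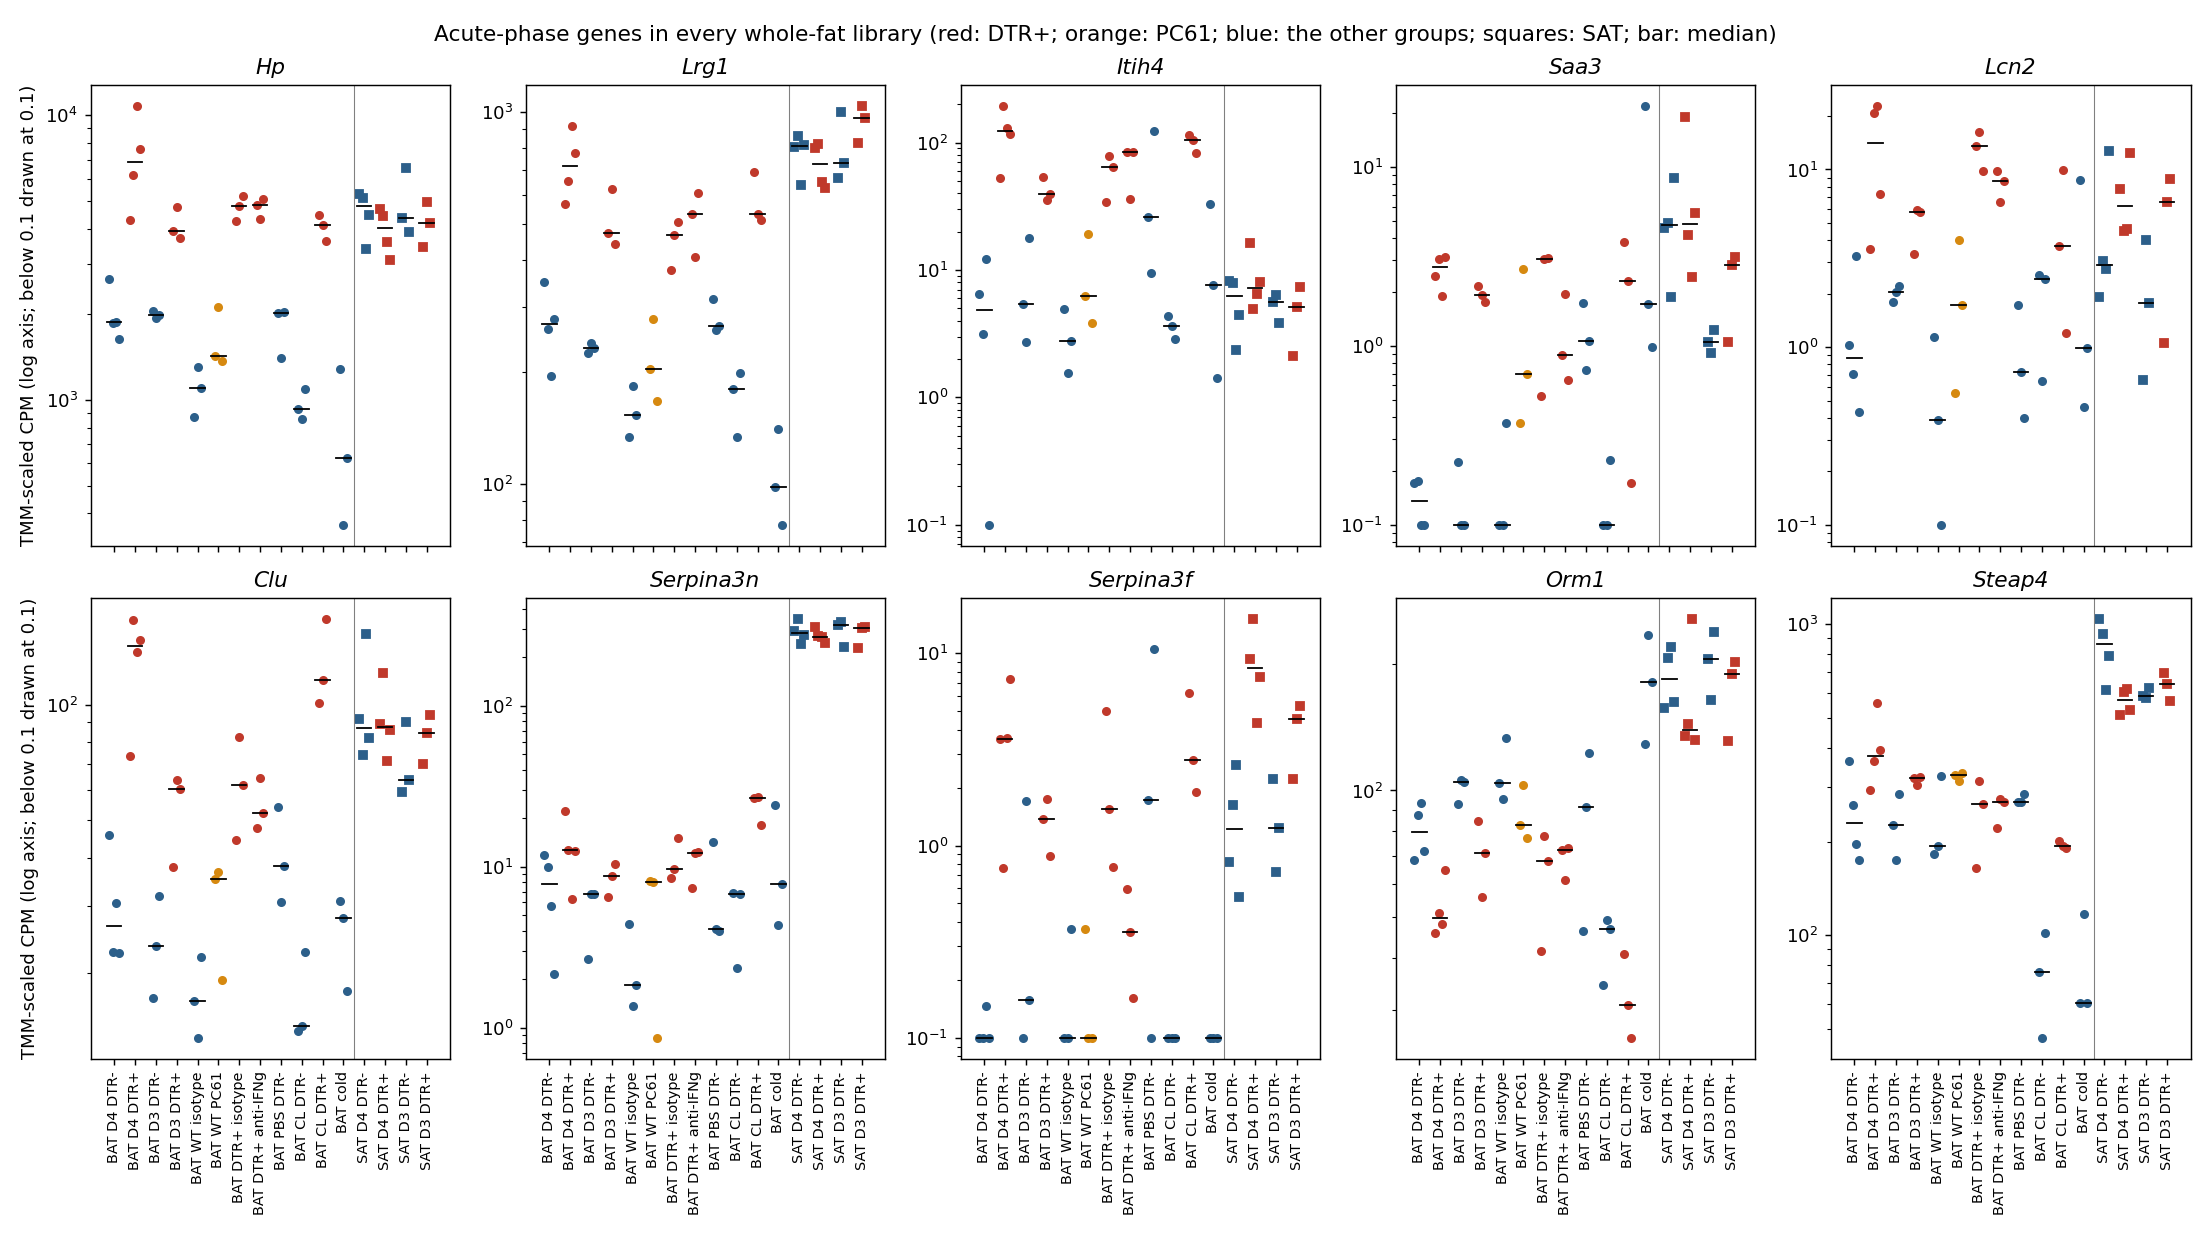
Each panel plots one gene, with the 16 whole-fat groups on the x axis and TMM-scaled CPM on a log y axis, where values below 0.1 are drawn at 0.1. Points are libraries and bars are group medians. Hp, Lrg1, Clu and Itih4 in DTR+ BAT (red circles) stood above their D3 and D4 DTR- counterparts, and Serpina3n separated SAT (228 CPM and above) from BAT (27.2 CPM and below).

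In the D4 groups the DTR+ BAT held more RNA of most members than the DTR- BAT. Of the 9 members that passed the low-count filter, 6 rose (Hp, Lrg1, Itih4, Saa3, Lcn2 and Clu), Orm1 fell, and Serpina3n and Steap4 did not pass the test. Of all 11695 genes tested 16.1% were called, 8.73% higher and 7.36% lower. The members' median log2 difference was 1.89, against 0.02 over all genes. With whole tissue, more RNA per cell and more cells of a type cannot be told apart.

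Hp stood at 2670, 1870, 1880 and 1640 CPM in the DTR- and at 4280, 6160, 10800 and 7590 CPM in the DTR+ libraries. No DTR+ library came down to the DTR- range, and the third was the highest of all 52. The log2 fold change was 1.89 ± 0.32 (SE, edgeR adjusted p = 0.01), a 3.72-fold difference. Lcn2 encodes lipocalin 2, which withholds iron from bacteria by binding their siderophores (chr2:32384633-32388252, minus strand). It went from 1.03, 0.704, 3.24 and 0.43 CPM to 3.58, 20.7, 22.8 and 7.31 CPM (3.30 ± 0.75, adjusted p = 0.017). Its groups did not overlap, but the first DTR+ library lay just above the highest DTR- one, and without the first or the second DTR- library the adjusted p was 0.067.

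Orm1 went the other way. It encodes alpha-1-acid glycoprotein, a plasma carrier of small hydrophobic molecules (chr4:63344560-63348163, plus strand). The DTR- libraries held 68.4, 87.3, 93.5 and 71.8 CPM and the DTR+ libraries 45.9, 51.2, 48.0 and 64.7 CPM. All DTR+ values lay below all DTR- values, and Orm1 fell by 0.56 ± 0.14 on the log2 scale (edgeR adjusted p = 0.011). Scaled by library totals in place of TMM, which moved the median of all genes from 0.02 to 0.27, the Orm1 difference was -0.31 with an adjusted p of 0.13.

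Itih4 comes first among the inhibitors and matrix proteins. It encodes a heavy chain of the inter-alpha-trypsin inhibitor family (chr14:30886476-30902353, plus strand), and its promoter is the first of those printed above. Itih4 stood at 6.53, 3.17, 12.1 and 0 CPM in DTR- and at 52.4, 194, 130 and 116 CPM in DTR+ libraries. The lowest DTR+ value was above the highest DTR- value (log2 fold change 4.48 ± 0.84, edgeR adjusted p = 0.016, and 0.057 without the second DTR- library). Serpina3n encodes a serine protease inhibitor related to human alpha-1-antichymotrypsin (chr12:104406729-104414329, plus strand). It had 11.9, 10, 5.74 and 2.15 CPM against 22.3, 12.8, 6.28 and 12.5 CPM, overlapping groups with a difference of 0.91 ± 0.47 (adjusted p = 0.25). Its neighbour Serpina3f (chr12:104214544-104221129, plus strand), a member of the same serpin cluster, had 1 count over the 4 DTR- libraries and 74 over the 4 DTR+ libraries. It was too low to be tested. The ratio was 78.0 with a counting interval of 13.6 to 3120 (95%, exact). The DTR+ libraries held 3.58, 0.762, 3.62 and 7.31 CPM, and 3 of the 4 DTR- libraries held none.

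Lrg1 encodes a leucine-rich glycoprotein that acts on TGF-beta signalling through endoglin (chr17:56119678-56122001, minus strand). It rose from 350, 261, 196 and 278 CPM to 566, 655, 918 and 778 CPM, a log2 fold change of 1.48 ± 0.19 (edgeR adjusted p = 0.00088), without overlap. Clu encodes clusterin, an extracellular chaperone (chr14:65968483-65981547, plus strand), and rose from 45.7, 22.7, 30.5 and 22.6 CPM to 73.6, 166, 137 and 147 CPM (2.16 ± 0.33, adjusted p = 0.0041). The first DTR+ library was again the lowest of its group and the first DTR- library the highest of its own. Saa3 encodes the serum amyloid A made mainly outside the liver (chr7:46711998-46715700, minus strand). It had 2 counts over the DTR- libraries and 57 over the DTR+ libraries, a ratio of 30.0 with a counting interval of 7.94 to 254 (edgeR adjusted p = 0.00066). Its DTR+ values of 2.44, 3.05, 1.90 and 3.13 CPM were alike. The liver forms Saa1 and Saa2 had 0 and 1 counts in the same DTR+ libraries, so nearly all SAA reads there were assigned to Saa3. The Saa, Serpina3 and Orm genes lie in families of similar copies, and how reads that match several copies were counted is not given in the sources used here, so the values of single members of these families are uncertain to that extent.

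Steap4 encodes a membrane metalloreductase of adipocytes and, unlike the other members, no secreted protein (chr5:7960457-7982213, plus strand). It stood at 363, 263, 196 and 174 CPM against 294, 363, 560 and 393 CPM, overlapping groups that did not pass the test (0.75 ± 0.29, edgeR adjusted p = 0.13). With library totals the difference was 1.00 (adjusted p = 0.046), and without the first DTR- library it was 0.95 (adjusted p = 0.032).

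**Figure D2:**
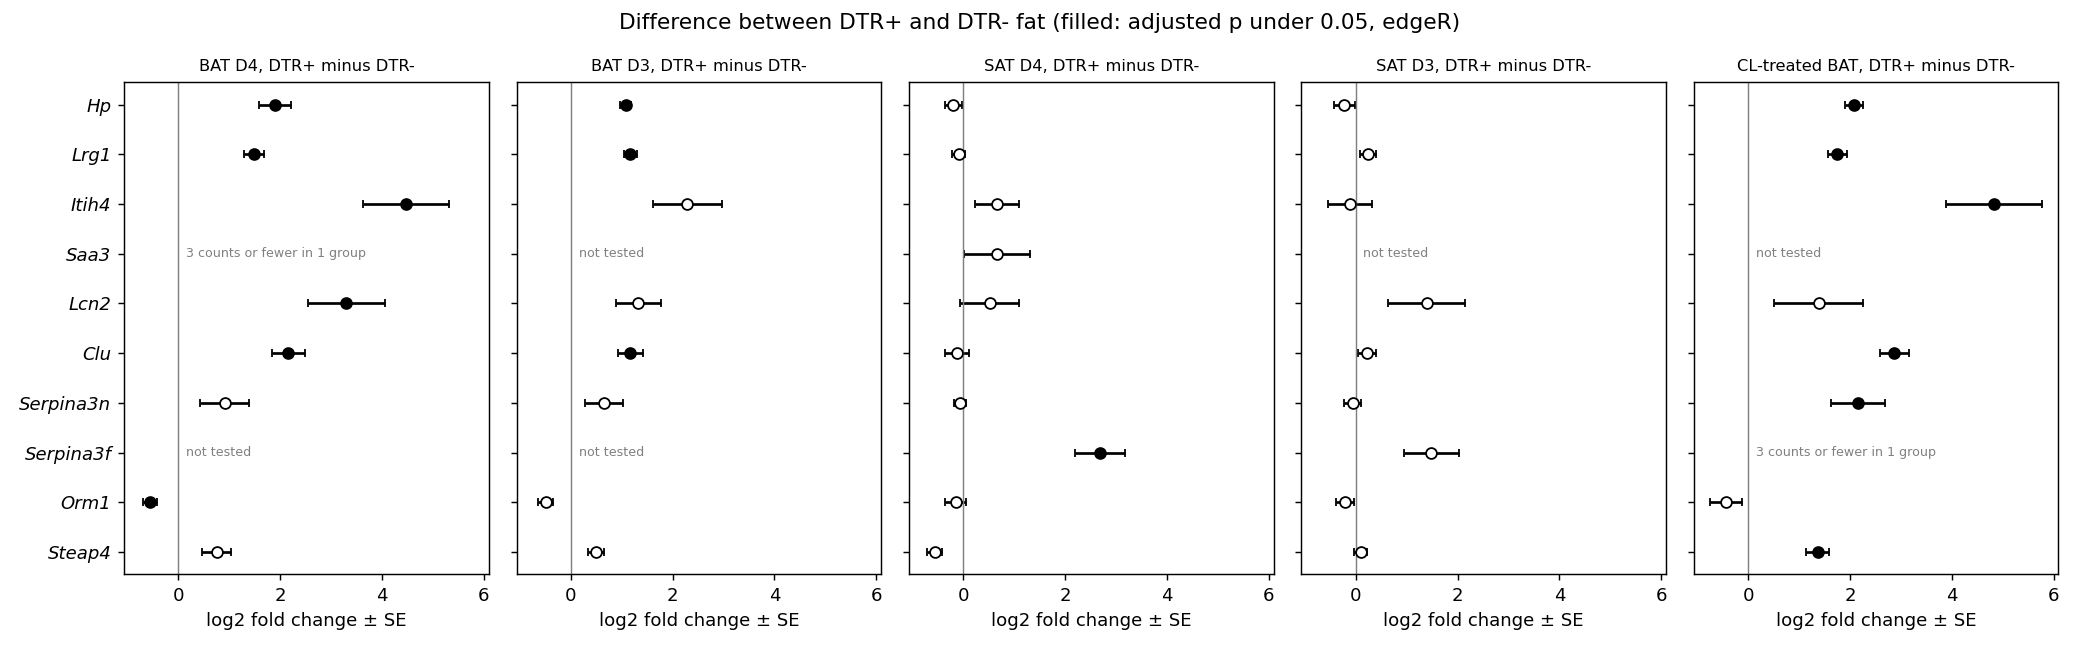
Each panel gives the log2 fold change of DTR+ over DTR- libraries on the x axis, with its SE, for the members on the y axis. Filled points passed an edgeR adjusted p of 0.05, and members with 3 counts or fewer in 1 group have no point. In BAT, Hp, Lrg1 and Clu were filled at D4 (1.89, 1.48 and 2.16), at D3 (1.07, 1.17 and 1.17) and under CL (2.07, 1.75 and 2.87), and in SAT the filled point was Serpina3f at D4 (2.68).

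The D3 BAT groups share no library with the D4 groups. Of the 8 members tested at D3, 3 rose and 0 fell, where 3.52% of 11666 genes were called (2.24% higher and 1.29% lower). Hp rose from 2060, 1940 and 1990 CPM to 3940, 4760 and 3700 CPM (log2 fold change 1.07 ± 0.11, edgeR adjusted p = 9.4e-05). Lrg1 rose from 225, 240 and 232 CPM to 475, 622 and 442 CPM (1.17 ± 0.13, adjusted p = 2e-04). Both sets of 3 were far apart relative to their own spread. Clu had 17.3, 23.6 and 31.7 CPM against 37.7, 63.7 and 60.4 CPM (1.17 ± 0.25, adjusted p = 0.028). That call rested on the number of libraries: without the first or second DTR- library, or the second or the third DTR+ library, the adjusted p was 0.060 to 0.11.

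The other members at D3 did not pass the test. Itih4 had 5.38, 2.71 and 17.7 CPM against 53.7, 35.4 and 39.3 CPM, separate groups with a difference of 2.29 ± 0.69 (edgeR adjusted p = 0.19). The third DTR- library was the high one, and without it the difference was 3.47 (adjusted p = 6.8e-05). Steap4 also passed without that library (0.69, adjusted p = 0.018), which brought the members called to 5. Saa3, not tested, had 1 count in DTR- and 32 in DTR+ libraries, a ratio of 32.3 with a counting interval of 5.39 to 1310. Of the 8 members tested at both D3 and D4, all 8 had the same sign, the D4 difference was the larger in all 8, and 3 were called at both. The shares of all genes that did so were not computed, so these counts describe the members only. Of all genes tested, 16.1% were called at D4 and 3.52% at D3.

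Few genes were called in SAT. Of 10 members tested at D4, 1 rose and 0 fell, with 0.314% of 12728 genes called (0.299% higher and 0.0157% lower). The members' median was -0.08 against 0.00 over all genes. Hp stood at 5310, 5110, 3400 and 4470 CPM in DTR- and at 4690, 4440, 3590 and 3100 CPM in DTR+ SAT, overlapping ranges with a difference of -0.19 ± 0.17 (edgeR adjusted p = 0.83). Lrg1 was at -0.09 ± 0.13 and Clu at -0.12 ± 0.24, both within their groups' spread. The member that rose was Serpina3f, from 0.824, 1.62, 2.62 and 0.542 CPM to 9.34, 15.1, 4.34 and 7.52 CPM (2.68 ± 0.50, adjusted p = 0.034). Its groups did not overlap, yet in the 6 fits that left out any library but replicate 3 of either group the adjusted p was 0.097 to 0.22 and 0 members were called. Steap4 had 1040, 932, 615 and 790 CPM in DTR- and 512, 607, 617 and 530 CPM in DTR+ libraries. Its lowest DTR- value, the library with T cell markers at 96.0 CPM, fell just inside the DTR+ range. The difference was -0.56 ± 0.14 (adjusted p = 0.24), and without that library it was -0.69 (adjusted p = 0.017).

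At D3 in SAT 0 of 9 members and 0 of 12596 genes (0%) were called by edgeR. At an unadjusted p under 0.05 there were 629 genes, of which 1 was a member (Serpina3f), and DESeq2 called 19 genes and 0 members. Serpina3f had 2.23, 0.725 and 1.23 CPM against 2.22, 4.53 and 5.35 CPM (1.49 ± 0.53, adjusted p = 0.90). Lcn2 had 0.655, 3.99 and 1.78 CPM against 1.05, 6.52 and 8.80 CPM, and Hp differed by -0.23 ± 0.21, with overlap in each.

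The difference between the tissues was itself tested, as the DTR+ minus DTR- change in BAT less that in SAT. At D4 it was called for 5 of 10 members, all 5 positive, with 4.11% of 13502 genes called (3.06% higher and 1.05% lower). Hp gave 2.06 ± 0.34 (edgeR adjusted p = 0.0043), Lrg1 1.54 ± 0.23 (adjusted p = 0.0016) and Clu 2.24 ± 0.42 (adjusted p = 0.0098). Steap4, with opposite signs in the tissues, gave 1.28 ± 0.32 (adjusted p = 0.034), and Saa3 gave 4.02 ± 1.11 (adjusted p = 0.046). Hp, Lrg1 and Clu stayed called whichever of the 16 libraries was left out. The calls of Saa3 and Steap4 were close to the threshold and held in 2 and 4 of those 16 fits, with adjusted p up to 0.096 and 0.071, so that 3 to 6 members were called. Itih4 was at 3.78 ± 0.98 (adjusted p = 0.051). Serpina3f was higher in DTR+ libraries of both tissues, and its difference between them did not pass (3.26 ± 1.24, adjusted p = 0.15). At D3 the same test in edgeR called 0 of 10 members and 0.0675% of 13325 genes (0.06% higher and 0.0075% lower). Hp was at 1.28 ± 0.25 (adjusted p = 0.059). At an unadjusted p under 0.05 there were 1459 genes, of which 5 were members. DESeq2 called 142 genes there, of which 2 were members, Hp and Lrg1. Leaving out the third D3 DTR- library of BAT or of SAT brought the edgeR call of Itih4 (3.55, adjusted p = 0.018) or Hp (1.43, adjusted p = 0.011).

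The tissues differed in mice without the receptor. In D4 DTR- mice 7 of 9 tested members were lower in BAT than in SAT and 0 were higher, with 50.9% of 12310 genes called (25.9% higher and 25% lower in BAT). Serpina3n had 11.9, 10, 5.74 and 2.15 CPM in BAT and 291, 347, 243 and 276 CPM in SAT (-5.24 ± 0.38, edgeR adjusted p = 5.4e-06). Saa3 had 2 counts in BAT and 139 in SAT, a SAT to BAT ratio of 56.5 with a counting interval of 15.4 to 471. Steap4 (-1.74 ± 0.24), Clu (-1.70 ± 0.29), Lrg1 (-1.50 ± 0.16), Orm1 (-1.19 ± 0.14) and Hp (-1.16 ± 0.17) were also lower in BAT, each without overlap of the groups. Itih4 did not pass the test (-0.01 ± 0.82, adjusted p = 0.99), and neither did Lcn2 (-1.84 ± 0.73, adjusted p = 0.051).

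In the separate D3 libraries 6 of 8 tested members were lower in BAT, with 45.9% of 12387 genes called (23% higher and 22.9% lower). Serpina3n gave -5.68 ± 0.28 (edgeR adjusted p = 8.9e-08), with Lrg1 at -1.76, Clu at -1.51, Steap4 at -1.35, Hp at -1.28 and Orm1 at -0.97. The D4 DTR+ BAT, by contrast, held Hp and Clu at levels that overlapped SAT. Serpina3n in all DTR+ BAT, at most 27.2 CPM, stayed below the lowest SAT library at 228 CPM. Cell markers also differed between the 2 sites. Macrophage markers summed to 164 to 382 CPM in D4 DTR- BAT and 1000 to 2630 in D4 DTR- SAT, fibroblast markers to 620 to 912 and 2200 to 5940, and hepatocyte markers to 3.44 to 4.42 and 33.9 to 58.8. The hepatocyte sum in SAT was mostly Alb (mean 36.1 CPM, against 0 in BAT) and Apoc3 (7.06 against 2.63). Fgb (0.61 against 0.127) and Serpina1a (0.948 against 0) were also higher in SAT. Ttr was at 0 in both tissues, and Apoa2 was lower in SAT (0.158 against 1.27). The part of cell content in the tissue difference was not tested.

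Macrophage markers moved with the members in DTR+ BAT as well. The 7-gene list summed to 164 to 382 CPM in D4 DTR- and 582 to 1250 CPM in D4 DTR+ BAT, and at D3 to 162 to 280 and 349 to 406 CPM. Neutrophil markers, 8 genes, went from 2.36 to 6.53 CPM to 11.7 to 21.8 CPM at D4, and brown adipocyte markers from 14000 to 17000 CPM down to 8780 to 10600 CPM. T cell markers went from 1.76 to 3.09 CPM to 3.42 to 17.7 CPM, and B cell markers from 16.1 to 26.7 CPM down to 8.79 to 12.8 CPM. Fibroblast markers (620 to 912 and 723 to 990 CPM) and adipocyte markers (19500 to 26100 and 16800 to 22300 CPM) overlapped. Hepatocyte markers were at 3.44 to 4.42 CPM and 2.09 to 6.68 CPM, with Alb and Ttr at 0 in both groups. At D3 the neutrophil markers stood at 3.39 to 5.61 CPM in DTR- and 9.41 to 10.8 CPM in DTR+ BAT, the T cell markers at 1.79 to 2.53 and 3.49 to 3.73, the brown adipocyte markers at 17700 to 22100 and 11900 to 14800, and the adipocyte markers at 17300 to 18500 and 19800 to 23200. Within the adipocyte list at D3, 0 of 6 genes were called and the median log2 difference was -0.01. Adipoq, Cidec and Car3 were positive there, and Plin1, Fabp4 and Lep negative. The part of these cell types in the members' differences was not tested.

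**Figure D3:**
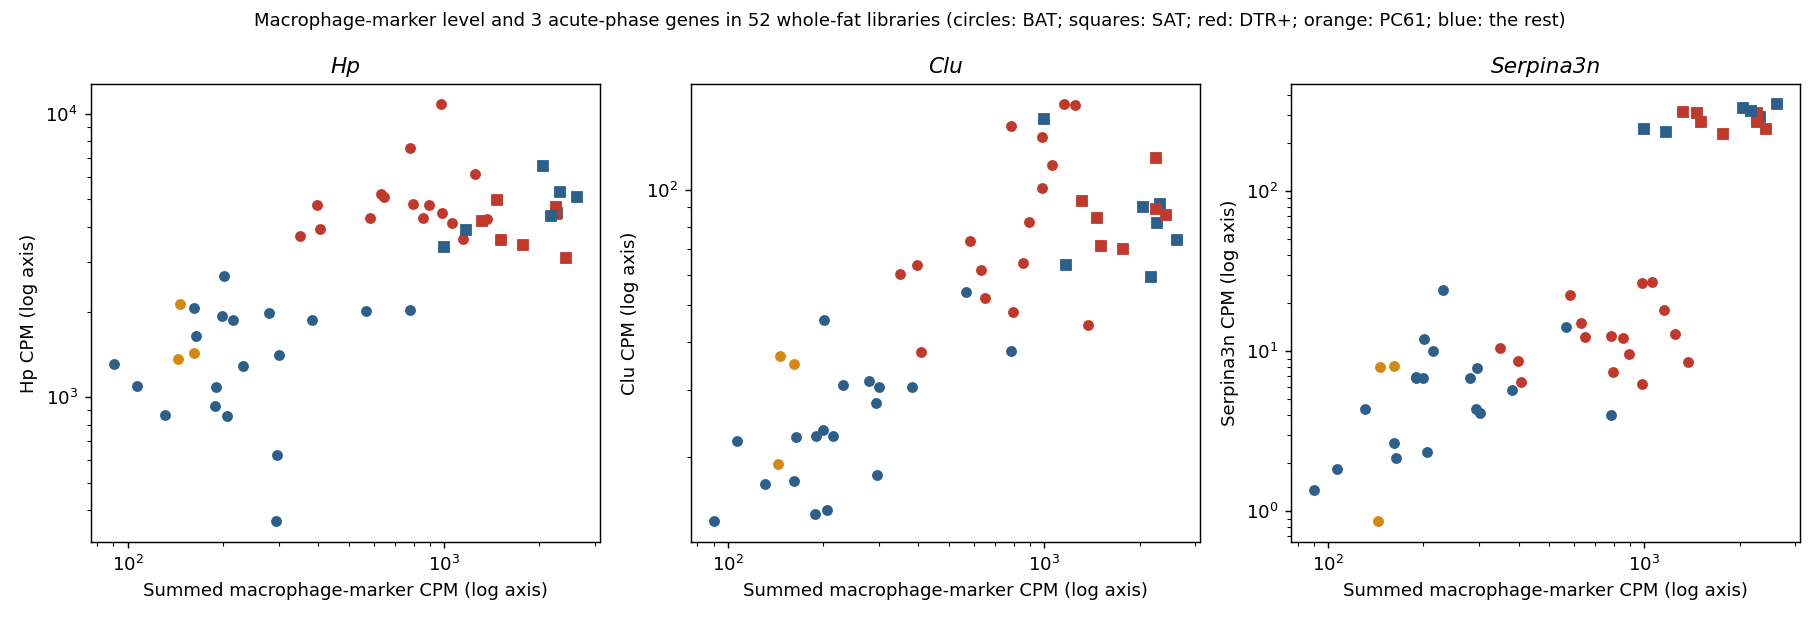
Summed macrophage-marker CPM is on the x axis and the CPM of Hp, Clu or Serpina3n on the y axis, both on log scales, for the 52 whole-fat libraries. DTR+ BAT (red circles) lay at 349 to 1370 on the macrophage axis with Hp between 3610 and 10800 CPM, and SAT (squares) at 1000 to 2630 with Hp between 3100 and 6540 CPM. Serpina3n stayed at 27.2 CPM or below in every BAT library.

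Within DTR- BAT, most members were lower with CL than with PBS. Of the 9 tested, 7 fell and 0 rose relative to PBS, with 28.1% of 12048 genes called (16.3% higher and 11.8% lower). Steap4 fell by 1.77 ± 0.23 on the log2 scale (edgeR adjusted p = 8.4e-05), from 269, 268 and 284 CPM to 76.3, 46.8 and 102 CPM. Hp fell by 0.83 ± 0.17 (adjusted p = 0.003), from 2020, 1410 and 2040 CPM to 930, 861 and 1090 CPM. Neither gene overlapped between the groups, and both stayed called whichever library was left out.

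Clu had 54.1, 30.6 and 38.0 CPM with PBS and 14.2, 14.6 and 22.7 CPM with CL, and fell by 1.14 ± 0.28 (edgeR adjusted p = 0.0083), also in every fit without a library. Lrg1 fell by 0.62 ± 0.18 (adjusted p = 0.022), Orm1 by 0.91 ± 0.31 (adjusted p = 0.041) and Itih4 by 3.84 ± 0.92 (adjusted p = 0.018). These 3 calls were each lost without some library, and 3 to 7 members were called over the 9 such fits. The count was 4 without the first or the third CL library and 3 without the second. Serpina3f had 88 counts with PBS and 0 with CL, at least 28.1-fold lower against a floor of 3 counts over the group (adjusted p = 0.018). The third PBS library, with T cell markers at 43.1 CPM against 4.41 and 4.13, held 79 of those 88 counts, and the adjusted p without it was 0.078. It also held Itih4 at 123 CPM, against 26.1 and 9.47 CPM. Mean Itih4 was 52.8 CPM with PBS, against 5.44 and 8.61 CPM in D4 and D3 DTR- BAT and 3.62 with CL. Mean Serpina3f was 4.09 CPM with PBS, against 0.0368 and 0.618 in D4 and D3 DTR- BAT. The macrophage-marker mean was 550 CPM, against 240 and 214. Mean Hp was not raised with PBS (1820 CPM, against 2010 and 2000). Whether the PBS group differed from those groups was not tested. Macrophage markers summed to 301 to 782 CPM with PBS and 189 to 205 CPM with CL. Adipocyte markers were at 26500 to 27900 and 17800 to 24900, brown adipocyte markers at 16500 to 20400 and 22900 to 27300, and endothelial markers at 180 to 301 and 404 to 445. Within the adipocyte list, Plin1 rose (1.99 ± 0.24 on the log2 scale) and Adipoq (-0.58 ± 0.16) and Fabp4 (-0.68 ± 0.18) fell, each called by edgeR. Cidec, Lep and Car3 did not pass. Within the brown adipocyte list, Ucp1 (0.84) and Ppara (3.21) were called higher. Elovl3 (1.08), Cidea (-0.05) and Cox8b (-0.23) did not pass. Within the endothelial list, Pecam1 (0.89), Cdh5 (2.05) and Kdr (1.17) were called higher. Tie1 (-0.25) and Emcn (-0.67) did not pass. The part of these cell types was not tested.

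With CL given to both genotypes, DTR+ BAT held more of the members than DTR- BAT. Of 9 tested, 6 rose and 0 fell, with 7.72% of 12048 genes called (4.51% higher and 3.21% lower). This comparison shares its DTR- libraries with the one against PBS. Hp stood at 930, 861 and 1090 CPM in DTR- and at 4460, 4130 and 3610 CPM in DTR+ libraries (2.07 ± 0.18, edgeR adjusted p = 0.00015). Clu went from 14.2, 14.6 and 22.7 CPM to 101, 116 and 167 CPM (2.87 ± 0.29, adjusted p = 0.00026) and Lrg1 from 180, 134 and 199 CPM to 690, 533 and 513 CPM (1.75 ± 0.19, adjusted p = 0.00029). Groups of each of these genes were well apart.

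Serpina3n, which did not pass at D3 or D4, rose here from 6.90, 2.36 and 6.77 CPM to 26.7, 27.2 and 18.2 CPM (2.16 ± 0.53, edgeR adjusted p = 0.025). Whether this differs from D3 or D4 was not tested. Steap4 rose from 76.3, 46.8 and 102 CPM to 201, 194 and 191 CPM (1.37 ± 0.23, adjusted p = 0.0044). Itih4 rose from 4.36, 3.65 and 2.87 CPM to 114, 104 and 82.6 CPM (4.83 ± 0.94, adjusted p = 0.024). The calls of Itih4 and Serpina3n each went when one of several libraries was left out, and 4 to 7 members were called over those fits. Serpina3f was at least 22.0-fold higher, with 0 counts in DTR- and 77 in DTR+ libraries, but did not pass (adjusted p = 0.05). Orm1, at 34.5, 49.1 and 46.7 CPM against 40.9, 30.9 and 25.8 CPM, did not pass either (-0.43 ± 0.31, adjusted p = 0.43). Macrophage markers were at 189 to 205 CPM in DTR- and 984 to 1150 CPM in DTR+ libraries, neutrophil markers at 2.57 to 7.63 and 22.4 to 34.1, T cell markers at 0.726 to 3.00 and 25.7 to 30.6, and fibroblast markers at 822 to 902 and 1280 to 1530. Their part was not tested.

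**Figure D4:**
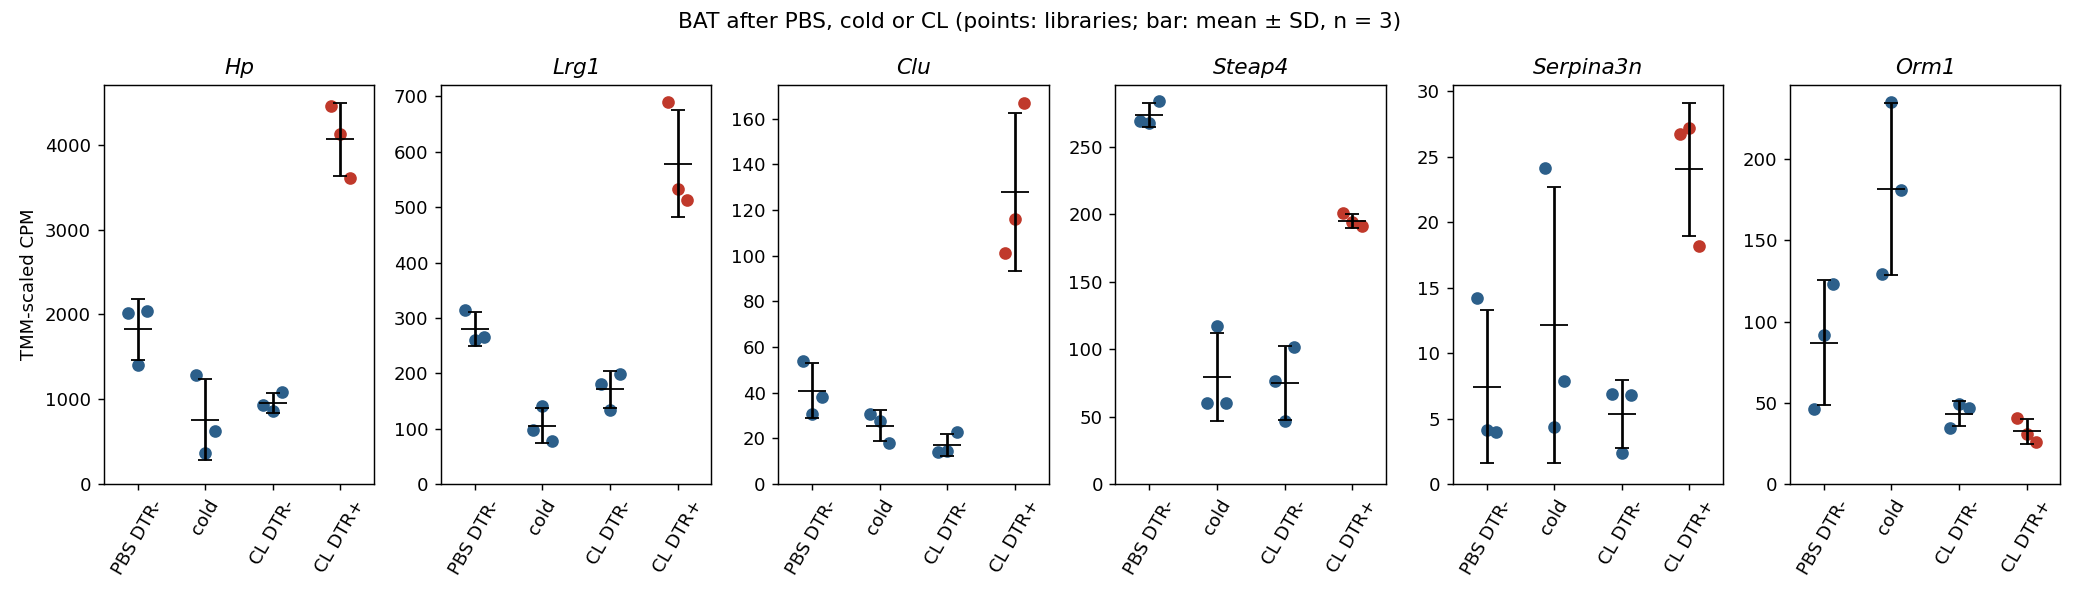
For 6 members, CPM on a linear y axis is shown for the PBS, cold, CL DTR- and CL DTR+ groups of BAT on the x axis, with points for libraries and bars for mean ± SD (n = 3). Steap4 was at 268 to 284 CPM with PBS, at 60.4 to 117 in the cold, at 46.8 to 102 with CL and at 191 to 201 with CL in DTR+ mice. Orm1 was highest in the cold, at 129 to 235 CPM.

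BAT of mice at 4 degrees was compared with the PBS group, which received toxin, so cold, toxin and experiment cannot be told apart. Of 8 members tested 2 fell and 0 rose, with 8.66% of 12329 genes called (4.86% higher and 3.8% lower). Lrg1 fell by 1.44 ± 0.20 (edgeR adjusted p = 0.0022), from 315, 260 and 266 CPM to 98.6, 141 and 77.9 CPM. Steap4 fell by 1.82 ± 0.24 (adjusted p = 0.0017), from 269, 268 and 284 CPM to 60.5, 117 and 60.4 CPM. Orm1 had 46.4, 91.5 and 123 CPM with PBS and 129, 235 and 181 CPM in the cold, separate ranges that did not pass the test (1.04 ± 0.34, adjusted p = 0.10) until the third PBS library was left out (1.36, adjusted p = 0.040).

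The first cold library stood apart. Its hepatocyte markers summed to 361 CPM, and it held Saa3 at 21.9 CPM against 1.72 and 0.984 CPM, Lcn2 at 8.71 against 0.460 and 0.984 CPM, Itih4 at 33.0 against 7.58 and 1.41 CPM, and Hp at 1290 against 365 and 625 CPM. The liver genes Saa1 and Saa2 had 198 and 227 counts over the cold group, and 0 and 3 over the PBS group. With all libraries Hp was at -1.29 ± 0.47 (edgeR adjusted p = 0.16), and without that library it fell by 1.91 (adjusted p = 0.0065). Without that library and the third PBS library, Hp fell by 1.83 (adjusted p = 0.0028), Orm1 rose by 1.57 (adjusted p = 0.0089), and 4 members were called. Saa3, at 2.74 ± 1.10 (adjusted p = 0.16) with all libraries, has 161 of its 183 cold counts in that library. Other cell markers moved with cold as well. Adipocyte markers summed to 26500 to 27900 CPM with PBS and 11300 to 16800 in the cold, macrophage markers to 301 to 782 and 231 to 295, endothelial markers to 180 to 301 and 525 to 678, and brown adipocyte markers to 16500 to 20400 and 28100 to 30000. Within the brown adipocyte list, Ucp1 (0.98 on the log2 scale) and Elovl3 (3.21) rose, and Cidea (-0.62) and Cox8b (-0.52) fell, each called by edgeR. Ppara did not pass, and the list's median was -0.25. The part of all these cell types in the falls of Lrg1 and Steap4 was not tested.

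The PC61 and anti-IFNg experiments called none of the members. With PC61, 0 of 7 tested members and 0.651% of 11513 genes were called (0.165% higher and 0.486% lower) by edgeR. At an unadjusted p under 0.05 there were 1247 genes, of which 5 were members, and DESeq2 called 231 genes, of which 1 was a member. Hp had 870, 1310 and 1100 CPM with isotype and 1430, 2130 and 1370 CPM with PC61, narrowly separate groups (0.63 ± 0.20, adjusted p = 0.28, and 0.035 with DESeq2). Clu was at 0.83 ± 0.27 (adjusted p = 0.23) and Lrg1 at 0.50 ± 0.18 (adjusted p = 0.31), and 6 of the 7 differences were positive. Steap4 passed when the third isotype library was left out (0.83, adjusted p = 0.022). Orm1 was the negative one (-0.30 ± 0.15, adjusted p = 0.51). Macrophage markers were at 90.2 to 131 CPM with isotype and 144 to 162 with PC61, and fibroblast markers at 332 to 381 and 490 to 541. Adipocyte markers were at 14100 to 16400 and 16900 to 21500. Of that list 0 of 6 genes were called, and the median log2 difference was -0.05. Skeletal muscle markers ran from 3.88 to 1440 CPM with isotype and from 191 to 6340 with PC61. The part of all these cell types was not tested.

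With anti-IFNg in DTR+ mice, 0 of 9 tested members and 0.541% of 12017 genes were called (0.0333% higher and 0.508% lower) by edgeR. At an unadjusted p under 0.05 there were 982 genes, of which 1 was a member (Lcn2), and DESeq2 called 0 members. Hp stood at 4260, 4790 and 5210 CPM with isotype and at 4830, 4310 and 5080 CPM with the antibody, which overlap (-0.03 ± 0.09, edgeR adjusted p = 0.96). Lrg1 (0.17 ± 0.14), Clu (-0.22 ± 0.20) and Itih4 (0.19 ± 0.46) were also within their groups' spread, and Lcn2 was at -0.70 ± 0.29 (adjusted p = 0.52). In the same libraries 14 of 17 tested genes of an IFNg response list fell, among them the GTPase genes Igtp (by 2.20 ± 0.16, adjusted p = 2e-07), Gbp7 (by 1.94 ± 0.15) and Gbp2 (by 1.79 ± 0.14). The list's median was -1.52, against 0.01 over all genes. Serpina3f, too low to be tested, had 5.04, 1.54 and 0.770 CPM with isotype and 0.591, 0.354 and 0.162 CPM with the antibody, so that all isotype values lay above all antibody values. The isotype library numbered 3 held 29 of the 39 isotype counts.

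Genes of the signals known to drive acute-phase synthesis were read from fixed lists, chosen with earlier results known. In D4 BAT, 6 of 13 tested genes of the IL-6 and STAT3 list rose and 0 fell (median 0.86). The feedback inhibitor Socs3 rose by 2.67 ± 0.30 (edgeR adjusted p = 3.3e-05), from 2.72 ± 0.273 CPM to 16.8 ± 5.51 CPM (SD, n = 4), Stat3 by 1.02 ± 0.12 and Bcl3 by 1.32 ± 0.21. Il6 itself was too low to be tested, at 0 CPM in DTR- and 0.0381 CPM in DTR+ BAT. Of 15 genes of the IL-1, TNF and NF-κB list 11 rose and 0 fell (median 1.27), including the IL-1 receptor antagonist Il1rn (3.33 ± 0.27) the inhibitor Nfkbia (1.41 ± 0.12) and the NF-κB subunit Relb (1.46 ± 0.20). At D3 the counts were 6 of 13 and 7 of 15, each with 0 lower. In D4 SAT neither list had a called gene (0 of 14 and 0 of 15), while 13 of 18 IFNg response genes rose there. Of 13 glucocorticoid-responsive genes in D4 BAT, 4 rose and 1 fell. Over all genes tested, 8.73% were called higher and 7.36% lower in D4 BAT, and 2.24% and 1.29% in D3 BAT. In D4 SAT the shares were 0.299% and 0.0157%.

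Under CL the members and the IL-6 list did not move alike in DTR- BAT. Of 14 tested genes of that list 9 rose and Il11ra1 fell, with Pim1 (1.25 ± 0.19), Il6st, the shared receptor subunit (0.94 ± 0.19), and Osmr (1.07 ± 0.25) among the risers, while 7 members fell. In CL-treated DTR+ against DTR- BAT 2 of 14 rose, Osmr (0.88 ± 0.24) and Stat3 (0.77 ± 0.21), and 6 of 15 genes of the NF-κB list rose, with Il1rn at 4.58 ± 0.57. Because the comparisons share libraries, these values are set side by side without a test of their relation. Over all genes tested, 16.3% were called higher and 11.8% lower with CL, and 4.51% and 3.21% in DTR+ under CL.

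Of 36 other acute-phase genes listed, 17 passed the filter in D4 SAT and 10 in D4 BAT, where 5 rose and 1 fell (median 0.68). Cp, the copper carrier ceruloplasmin, rose by 0.99 ± 0.15 (edgeR adjusted p = 0.00034) from 27.4 ± 4.07 to 52.6 ± 6.14 CPM. S100a8, which is also on the neutrophil list, rose by 2.46 ± 0.49, and Itih5, of the Itih4 family, fell by 0.48 ± 0.11. Of 14 complement genes 9 rose and 0 fell, with the anaphylatoxin receptor C5ar1 at 2.42 ± 0.28, properdin (Cfp) at 1.49 ± 0.25 and C1qb, also a macrophage marker, at 1.56 ± 0.22. Of 3 tested genes whose proteins fall in the acute phase, Rbp4 fell by 1.05 ± 0.22 (adjusted p = 0.011), from 186 ± 57.7 to 86.4 ± 16 CPM. Among receptors and partners of the members 1 of 9 rose and 1 fell: Cd163, the haptoglobin-haemoglobin scavenger receptor of macrophages, fell by 1.71 ± 0.45 (adjusted p = 0.014), and Lrp1, which takes up haem and serpin complexes, rose by 1.28 ± 0.12 (adjusted p = 7.8e-06). In D4 SAT none of these lists had a called gene. Over all genes tested, 8.73% were called higher and 7.36% lower in D4 BAT, and 0.314% were called in D4 SAT.

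Across all 16 groups, Hp was highest in D4 DTR+ BAT (7200 ± 2740 CPM, n = 4) and lowest in the cold (759 ± 476 CPM, n = 3). The 9 groups at the top of the Hp order were the 5 DTR+ BAT groups and the 4 SAT groups, whose neighbours overlap. The next step, from 3100 CPM in the lowest library of the ninth group to 2670 CPM in the highest of D4 DTR- BAT, was a gap. A further gap lay between the PC61 group and its isotype group, at 1370 and 1310 CPM. For Lrg1 the libraries of the same 9 groups, at 376 CPM and above, also stood above all others, which reached 350 CPM. Serpina3n had a gap after the 4 SAT groups, and Orm1 had no gap between any neighbours. For Steap4 the cold and CL DTR- groups, at 117 CPM and below, lay under every other library, the lowest of which was at 165 CPM.

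The genes whose log2 group means over the 12 BAT groups (38 libraries) were most like a member's are given as a description. Other members were left out of this ranking, as were genes with provisional, pseudogene, ribosomal or mitochondrial names. Hp and Lrg1 were more like each other (r = 0.982) than like any gene ranked. The ranked genes nearest to Hp were Gmip (r = 0.954), Pilra (0.945) and Tnfaip3 (0.938). Those nearest to Lrg1 were Pik3ip1 (0.952), C4b (0.942) and Tnfaip3 (0.939). Itih4 was most like Itgax (0.971), Rab7b (0.969) and Cd84 (0.967), and Clu like Snx20 (0.965), Itgam (0.959) and Slfn2 (0.954). Serpina3f stood apart from these, with Gbp10 (0.979), Zbp1 (0.977) and Igtp (0.976) nearest. Orm1 was nearest to Arpc5l (0.984), Thg1l (0.975) and Gsk3b (0.971). The points are means of few libraries, and groups share their genotype and treatment.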

How the data were processed

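Whole-fat RNA was reverse transcribed from oligo(dT) by the Smart-seq2 protocol and made into Nextera XT libraries, per the labels' protocols. The deposited values are raw counts per gene. STAR 2.7.3a, featureCounts and the build mm10 are named in the submitters' processing notes, and which annotation release, strand setting and multimapping rule were applied is not given in the sources used here. Members and gene lists were chosen with earlier results of these data known.

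Each comparison was fitted over all genes with edgeR 4.0.16 in R 4.3.3 (filterByExpr, TMM, robust quasi-likelihood test, Benjamini-Hochberg adjustment, threshold 0.05), and every adjusted p is from this test unless DESeq2 1.42.0 is named. The D4, D3 and antibody comparisons used their own groups, the PBS and CL groups were fitted together, and the tissue interactions used the 4 groups of 1 time name. The procedure was tested on simulated data with 200 changed genes in each comparison. In edgeR 17% (DTR+ under CL and D3 interaction) to 60% (D3 BAT) of log2 changes of 1 were recovered. For changes of 2 it was 63% (D3 interaction) to 91% (D4 BAT). False calls made up 1.16% (D4 interaction) to 12.7% (PC61) of edgeR calls, and 7.84% (anti-IFNg) to 23.1% (cold) of DESeq2 calls. The simulated counts used 1 mean per gene and the dispersions fitted to the data. Far more than 200 genes were called in some comparisons (6268 between tissues at D4), so these rates need not hold there. Totals of 3007241 to 9673342 counts set the precision. TMM factors over the 52 whole-fat libraries ran from 0.7759 to 1.2306. Levels are CPM on that scale and need not give the fitted fold change exactly. TPM used GENCODE M21 exon lengths, matched for 52897 of 55011 genes with 98.8% of the counts. Ratios with 3 counts or fewer in a group have exact 95% intervals, and those and the floor of 3 counts over a group cover counting error only. All 67 pairs of libraries within a group differed beyond sampling noise (chi-square over its degrees of freedom, 7.02 to 37.55).

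Named genes are the 10 members and, for each list, up to 3 called genes with the smallest p. Likeness is Pearson's r of log2 CPM means, ranked without the other members and without genes of provisional, pseudogene, ribosomal or mitochondrial names. Alternatives were DESeq2, RLE factors, no low-count filter, a replicate block, each library left out and, for the cold, other control groups. Library totals in place of TMM and joint removal of libraries with hepatocyte, T cell or muscle RNA were added after seeing the data. The sorted Treg libraries entered no comparison. Figures were drawn with matplotlib 3.10.9.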

Additional observations from a re-analysis of the deposited data

Results flagged for a closer look

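The difference between BAT and SAT in the DTR+ minus DTR- change at D4 passed the interaction test for Hp (2.06 on the log2 scale), Lrg1 (1.54), Saa3 (4.02), Clu (2.24) and Steap4 (1.28), each larger in BAT.

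Of 38 pairs of a member and a group of 4 libraries, 2 had a library far from the others. Lcn2 stood at 12.7 CPM in the fourth D4 DTR- SAT library, against 1.92 to 3.07 CPM in the other libraries of that group. Orm1 stood at 256 CPM in the third D4 DTR+ SAT library, against 132 to 144 CPM in the others. Chance gives such a library in about 1 of 20 groups.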

How the results depend on the processing

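Leaving out 1 library gave 6 to 8 called members in D4 BAT, 2 to 5 in D3 BAT, 0 to 2 in D4 SAT, 0 to 0 in D3 SAT, 3 to 7 for CL, 4 to 7 for DTR+ under CL, 0 to 1 for PC61, 0 to 0 for anti-IFNg, 2 to 3 for cold, 7 to 8 and 6 to 6 for the tissue differences at D4 and D3, and 3 to 6 and 0 to 1 for the interactions. Differences that changed sign in some such fit, none of them called, had these ranges of log2 fold change: in D4 SAT Clu -0.27 to 0.17, Saa3 -0.31 to 1.07 and Serpina3n -0.14 to 0.019, in anti-IFNg Clu -0.42 to 0.019, Hp -0.10 to 0.037, Itih4 -0.095 to 0.49, Orm1 -0.11 to 0.30, Serpina3n -0.25 to 0.19 and Steap4 -0.20 to 0.22, in D3 SAT Hp -0.38 to 0.024, Itih4 -0.54 to 0.25 and Serpina3n -0.20 to 0.071, in BAT minus SAT at D3 Itih4 -0.37 to 1.20 and Lcn2 -0.46 to 0.75, in BAT minus SAT at D4 Itih4 -0.78 to 0.35, in interaction at D3 Lcn2 -0.84 to 0.45 and Serpina3f -0.98 to 2.12, in CL Serpina3n -0.70 to 0.50, in cold Serpina3n -0.31 to 1.54.

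With DESeq2 2 members were called in D4 SAT, 1 with PC61 and 2 in the D3 interaction. Without the low-count filter the counts were 6 in D3 BAT, 2 in D4 SAT, 5 with PC61, 5 in the cold and 3 in the D3 interaction. RLE factors moved no member count by over 1.5 times. With library totals 2 members were called in the D3 interaction, Lcn2 there was 0.12 and Steap4 with anti-IFNg -0.023. Leaving out replicate 3 of both D4 SAT groups gave 2 members and Clu at 0.28. In the cold, leaving out cold replicate 1 and PBS replicate 3 gave 4 members and Serpina3n at -0.64. The D3 DTR- libraries as control gave Itih4 0.62 and Clu 0.023, and the D4 DTR- libraries gave Itih4 1.25. The causes were not tested.

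No comparison had every pair of libraries with 1 number correlated over 0.1 (-0.23 to 0.162 in D4 BAT). All pairs were weakly positive in D4 SAT (0.06 to 0.1) and in BAT against SAT at D4 (0.038 to 0.12). With the replicate block 4 members were called in D4 BAT, where Hp, Itih4 and Clu had adjusted p of 0.085, 0.090 and 0.075, 0 in D4 SAT, 1 with PC61 and 4 in the cold, and Lcn2 between tissues at D3 was 0.18. Each library's best match had its own number in 3 of 4 pairs in D4 SAT and 1 of 4 in D4 BAT. In BAT against SAT at D4 it was also 3 of 4. Whether BAT and SAT libraries of 1 number came from the same mice is not stated. The main tissue and interaction tests treated all libraries as independent. For anti-IFNg against isotype no block could be fitted, because those groups share 1 number. The interactions were fitted without a block.

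All-gene counts that moved by over 1.5 times were, with DESeq2, 93 from 40 in D4 SAT, 19 from 0 in D3 SAT, 1581 from 930 for DTR+ under CL, 231 from 75 with PC61, 1603 from 1068 in the cold, and 982 from 555 and 142 from 9 in the interactions. Without the filter they were 155, 72, 1552, 347, 1744, 887 and 273 in the same order, 788 from 411 in D3 BAT and 172 from 65 with anti-IFNg. Library totals gave 628 in D3 BAT and 1073 and 62 in the interactions, the block 11 in D3 SAT and 658 in the cold, other controls 2724 and 3864 in the cold, and replicate 3 of both groups left out 71 in D4 SAT. Leaving out 1 library gave 118 to 391 in D3 BAT, 23 to 52 in D4 SAT, 0 to 10 in D3 SAT, 310 to 1354 for DTR+ under CL, 11 to 100 with PC61, 40 to 61 with anti-IFNg, 499 to 1046 in the cold, and 309 to 679 and 4 to 63 in the D4 and D3 interactions. With library totals the share of called genes that were higher went from 54.3% to 90.5% in D4 BAT, 63.5% to 90% in D3 BAT, 58.4% to 68.6% for DTR+ under CL, 25.3% to 46.3% with PC61, 50.9% to 22.8% and 50.1% to 23.6% between tissues, and 74.4% to 98.1% in the D4 interaction, with all-gene medians of 0.27, 0.22, 0.05, 0.13, -0.47, -0.49 and 0.29. With DESeq2 it was 81.7% in place of 95% in D4 SAT and 70.4% in place of 88.9% in the D3 interaction.

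Members with few counts (Saa3, Serpina3f, Lcn2 and Itih4 in DTR- BAT) are limited by depth, and no value there shows absence. Groups of 3 or 4 libraries leave wide intervals, so a member that missed the threshold is not shown to be unchanged.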

Other observations

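Serpina3f was the member with clear counts in sorted Treg cells, which were taken from mice of the strain B6.Foxp3.Thy1.1 and are on a TMM scale of their own. It stood at 32.4 and 16.5 CPM in Treg cells of BAT, at 22.6, 15.1 and 6.67 CPM in those of SAT, and at 13.7, 8.09 and 8.40 CPM in those of spleen, and the BAT range lies above the spleen range with 2 and 3 libraries. Hp, the member highest in whole fat, stood at 0 to 2.41 CPM in the same 8 libraries. Clu reached 3.02 and 5.34 CPM in Treg cells of BAT and at most 1.28 CPM in the others. The paralog Serpina3g had 889 counts over the BAT Treg libraries, against 235 for Serpina3f.

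In fat, Orm1 led its family. The D4 DTR- BAT libraries held 1863 counts of Orm1, 434 of Orm3 and 14 of Orm2, and those of D4 DTR- SAT held 5246, 222 and 31. Serpina3c, a neighbour of Serpina3n, had 193 counts in D4 DTR- BAT and 7183 in D4 DTR- SAT, near the 175 and 8026 counts of Serpina3n in the same libraries.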
